A study of Homo sapiens with 12 samples.

Results

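Ribosome biogenesis factors are the proteins that transcribe ribosomal DNA and turn its transcript into ribosomal subunits. A list of 58 genes, chosen by name and drawn from RNA polymerase I and the ribosome assembly pathway, was followed through RNA-seq gene counts of OCI-AML3 cells. All 58 were matched by symbol among the 78930 genes read, and all 58 were among the 24064 genes that passed the filter on low counts. They were sorted by role into 5 lists: rDNA transcription and nucleolar organisation (11 genes), proteins of small nucleolar ribonucleoproteins (snoRNPs, 8 genes), the small subunit (SSU) processome (12 genes), late 40S assembly (6 genes) and 60S assembly (21 genes). A further 114 genes of the same pathway, in 5 lists of their own, are given beside them.

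OCI-AML3 is a human acute myeloid leukaemia line with NPM1c, the cytoplasmic mutant of the nucleolar protein nucleophosmin. All 12 samples carry the label NPM1c-degron, in which the mutant protein bears a tag that the compound dTAG-13 directs to degradation. In 3 groups of 3 samples the cells were transduced with lentivirus for FL-NPM1c-mCherry (dTAG FL-NPM1c), Cbodynull-mCherry (dTAG Cbodynull) or mCherry alone (dTAG mCherry). Per the labels' protocols they received 500 nM dTAG-13 at 48 hours after transduction, and cells positive for mCherry were collected by sorting after a further 24 hours. The remaining group of 3, NTC DMSO, has a genotype label without a construct. Its titles say DMSO but its treatment label says dTAG, and NTC is not spelled out, so dTAG-13, virus and sort cannot be told apart in any comparison with it. The protocol names 1 line while the line labels are numbered, and separate cultures are not stated. Each p-value therefore measures spread among these samples only, and that spread may be technical. Transcripts were measured, not NPM1c protein or ribosomes.

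Ribosome production starts in the nucleolus, where RNA polymerase I transcribes the ribosomal DNA into a long precursor. The SSU processome folds and cuts the part that becomes the small (40S) subunit, snoRNPs modify the RNA, and separate sets of factors build the large (60S) subunit and finish both in the cytoplasm. Growing cells, leukaemia cells among them, spend much of their energy on this pathway, whose genes are well-known targets of the transcription factor MYC. Nucleophosmin is itself a nucleolar protein with roles in ribosome assembly.

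Library totals ran from 30519165 to 59925564 counts. Of 10 monocyte and macrophage markers, 10 rose in dTAG mCherry against NTC DMSO (median log2 fold change 3.24), and their summed level was 420 to 478 CPM (counts scaled by effective library size) in NTC DMSO, 3428 to 3859 in dTAG mCherry, 3030 to 3234 in dTAG FL-NPM1c and 4603 to 4822 in dTAG Cbodynull. The 15 proliferation genes summed to 4862 to 4999 CPM in NTC DMSO, 3351 to 3474 in dTAG mCherry, 3579 to 3760 in dTAG FL-NPM1c and 3293 to 3444 in dTAG Cbodynull. Myeloid progenitor markers summed to 175 to 251 CPM over all libraries (1 of 6 at 0), and epithelial and fibroblast markers to 59.99 to 67.1 CPM in NTC DMSO and 449 to 719 in the other groups. That sum does not describe the epithelial and fibroblast list as a whole, as only 2 of its 6 genes were tested. In dTAG mCherry against NTC DMSO 1 of them rose (log2 fold change 3.04) and 1 fell (-2.72). T and NK cell markers summed to at most 1.37 CPM (4 or 5 of 6 at 0), B and plasma cell markers to at most 6.45 and erythroid and megakaryocyte markers to at most 0.606. In bulk RNA fewer cells of a type and less RNA per cell cannot be told apart. Replicate 3 of NTC DMSO and replicates 2 and 3 of dTAG mCherry stood apart most from their groups along the GC content of transcripts. Add-back libraries also differed along it, less strongly. The counts of called genes below are therefore also given with an offset that removes each library's GC trend, taken relative to the mean of all libraries. Differences between groups that follow GC content are removed with it, whatever their source. The genes of the 58 whose call the offset ended are named. That offset was chosen after seeing the data.

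The 58 genes were well measured. The lowest mean over all libraries was 31.6 CPM. Per kilobase of exon, which allows levels of different genes to be compared, the highest mean level was that of NCL (223 CPM per kilobase), followed by NOP10 (151), DDX21 (90.9), FBL (76.7) and NOLC1 (76.6), and the lowest was that of NOL9 (4.48). NCL encodes nucleolin, NOP10 a small protein of the pseudouridine-guiding snoRNPs, and NOL9 a polynucleotide kinase of 60S maturation. An exon of a gene on the opposite strand overlaps 22 of the 58 genes, 7 overlap a gene on the same strand, and 13 have annotated pseudogenes that bear their name. The sources used here do not give the strand setting or the handling of reads with several matches, so the values of these genes are uncertain. Genes named below with an overlap on the opposite strand are POLR1C, UBTF, NHP2, UTP15, HEATR1, RRP12, TSR1, PNO1, NOB1, PES1, WDR12, MRTO4, BRIX1, EBNA1BP2, GNL3, NIP7 and WDR74. PPAN, which shares exons with a PPAN-P2RY11 readthrough gene, is the clearest case. The other genes with a same-strand overlap and those with pseudogenes are not listed here, so absence from this list does not clear a gene.

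Across the groups the 58 transcripts were most abundant in NTC DMSO and least abundant in dTAG mCherry. Together they took 0.835% to 0.842% of all counts in the NTC DMSO libraries, 0.765% to 0.790% in dTAG Cbodynull, 0.745% to 0.766% in dTAG FL-NPM1c and 0.718% to 0.725% in dTAG mCherry. In these shares of raw totals both outer groups lay clear of the others, while the ranges of the add-back groups met. Scaled by effective library size, the sums of dTAG mCherry (7058 to 7394 CPM) and dTAG FL-NPM1c (7372 to 7585 CPM) overlapped. The median deviation of the 58 genes from their own mean over the 12 libraries was 0.12, 0.15 and 0.09 on the log2 scale in NTC DMSO and -0.09, -0.13 and -0.04 in dTAG mCherry. It was -0.02, -0.08 and -0.05 in dTAG FL-NPM1c and 0.01, 0.04 and -0.00 in dTAG Cbodynull. By group mean, the highest level was in NTC DMSO for 36 genes, in dTAG FL-NPM1c for 11 and in dTAG Cbodynull for 11, and for no gene in dTAG mCherry. The lowest level was in dTAG mCherry for 34 genes, in dTAG FL-NPM1c for 22, in NTC DMSO for 1 and in dTAG Cbodynull for 1. With the GC offset the lowest level was in dTAG mCherry for 42 genes and in dTAG FL-NPM1c for 13. Over 6 comparisons between groups, 21 genes were called in none, 18 in 1, 11 in 2 and 8 in 3.

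**Figure D1:**
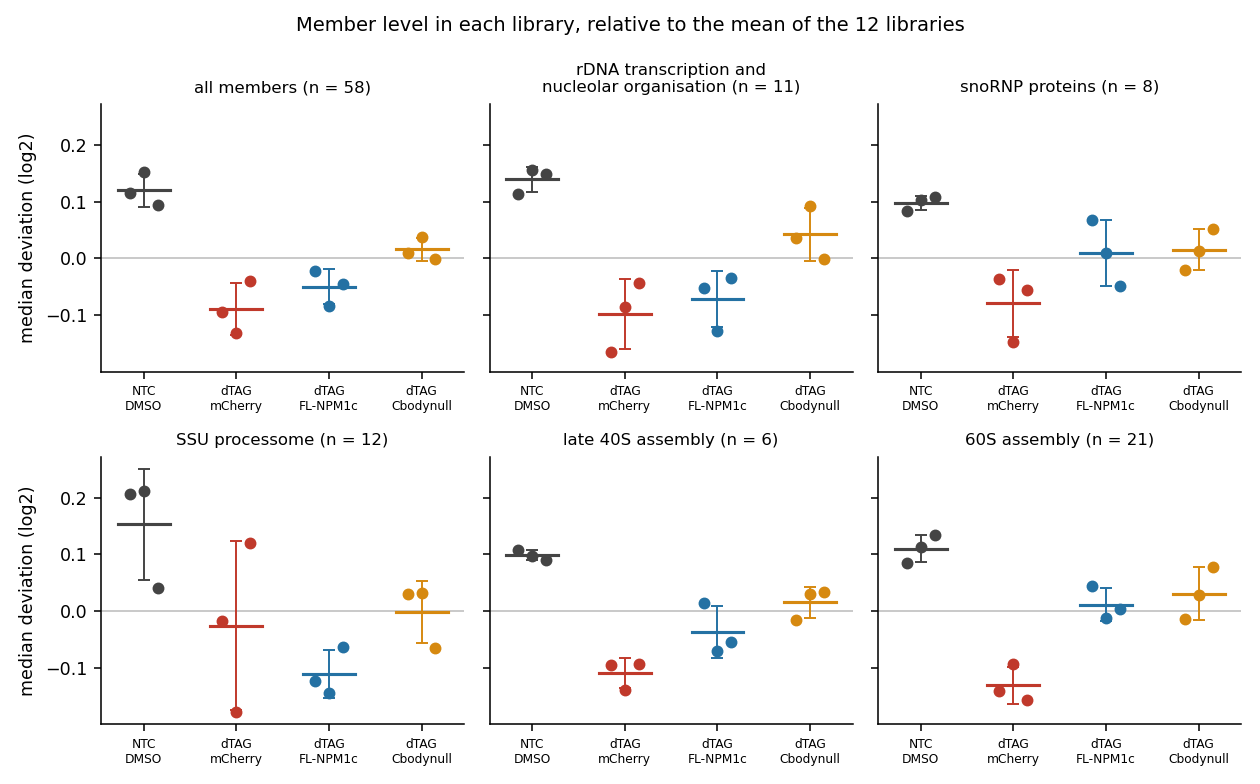
Median deviation of the genes of each list from their mean over the 12 libraries (log2, vertical axis) in each library of the 4 groups (points), with group mean and SD (bars, n = 3). NTC DMSO lies highest in each list, and dTAG mCherry lies lowest in each list but the SSU processome, where its 3 libraries scatter most and dTAG FL-NPM1c lies lowest. With the GC offset dTAG mCherry is lowest by group mean in the SSU processome too (-0.05, -0.12 and -0.03, against 0.0035, -0.04 and -0.01 in dTAG FL-NPM1c).

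The first comparison, dTAG mCherry against NTC DMSO, sets cells treated to degrade NPM1c beside cells whose titles name the solvent, with the limits given above. Ribosome biogenesis transcripts were moderately lower: 21 of 58 genes fell and none rose at an adjusted p under 0.05 (edgeR's quasi-likelihood test, Benjamini-Hochberg over all genes tested), where 9.69% of all 24064 genes fell and 12.9% rose. When only these 2 groups were fitted, 2 of the 21 remained, FBL and MRTO4, where 1167 of all 22789 genes tested fell. These calls showed no excess over all genes, while the median log2 fold change of the 58 was -0.21 in that fit. In the fit of all 4 groups, 17.3% of the 6327 genes at or above the lowest mean level of the 58 fell. The median log2 fold change of the 58 was -0.22 (range -0.42 to 0.12), against -0.00 for all genes tested, and 55 of 58 values were negative. The 3 libraries of the groups did not overlap, with dTAG mCherry lower, for 21 of 58 genes, compared with 14.3% of all genes, and none was higher without overlap (17.8% of all genes). The calls were spread over the lists: 5 of 11 in rDNA transcription and nucleolar organisation, 3 of 8 among snoRNP proteins, 1 of 12 in the SSU processome, 3 of 6 in late 40S assembly and 9 of 21 in 60S assembly, with medians of -0.24, -0.19, -0.19, -0.24 and -0.27. After the GC offset 38 of 58 genes fell and 1 rose (RRP12), where 15.8% of all genes fell and 20.6% rose, and the median was -0.20. In the order of the lists 9, 4, 7, 3 and 15 genes then fell, and all 21 calls remained.

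**Figure D2:**
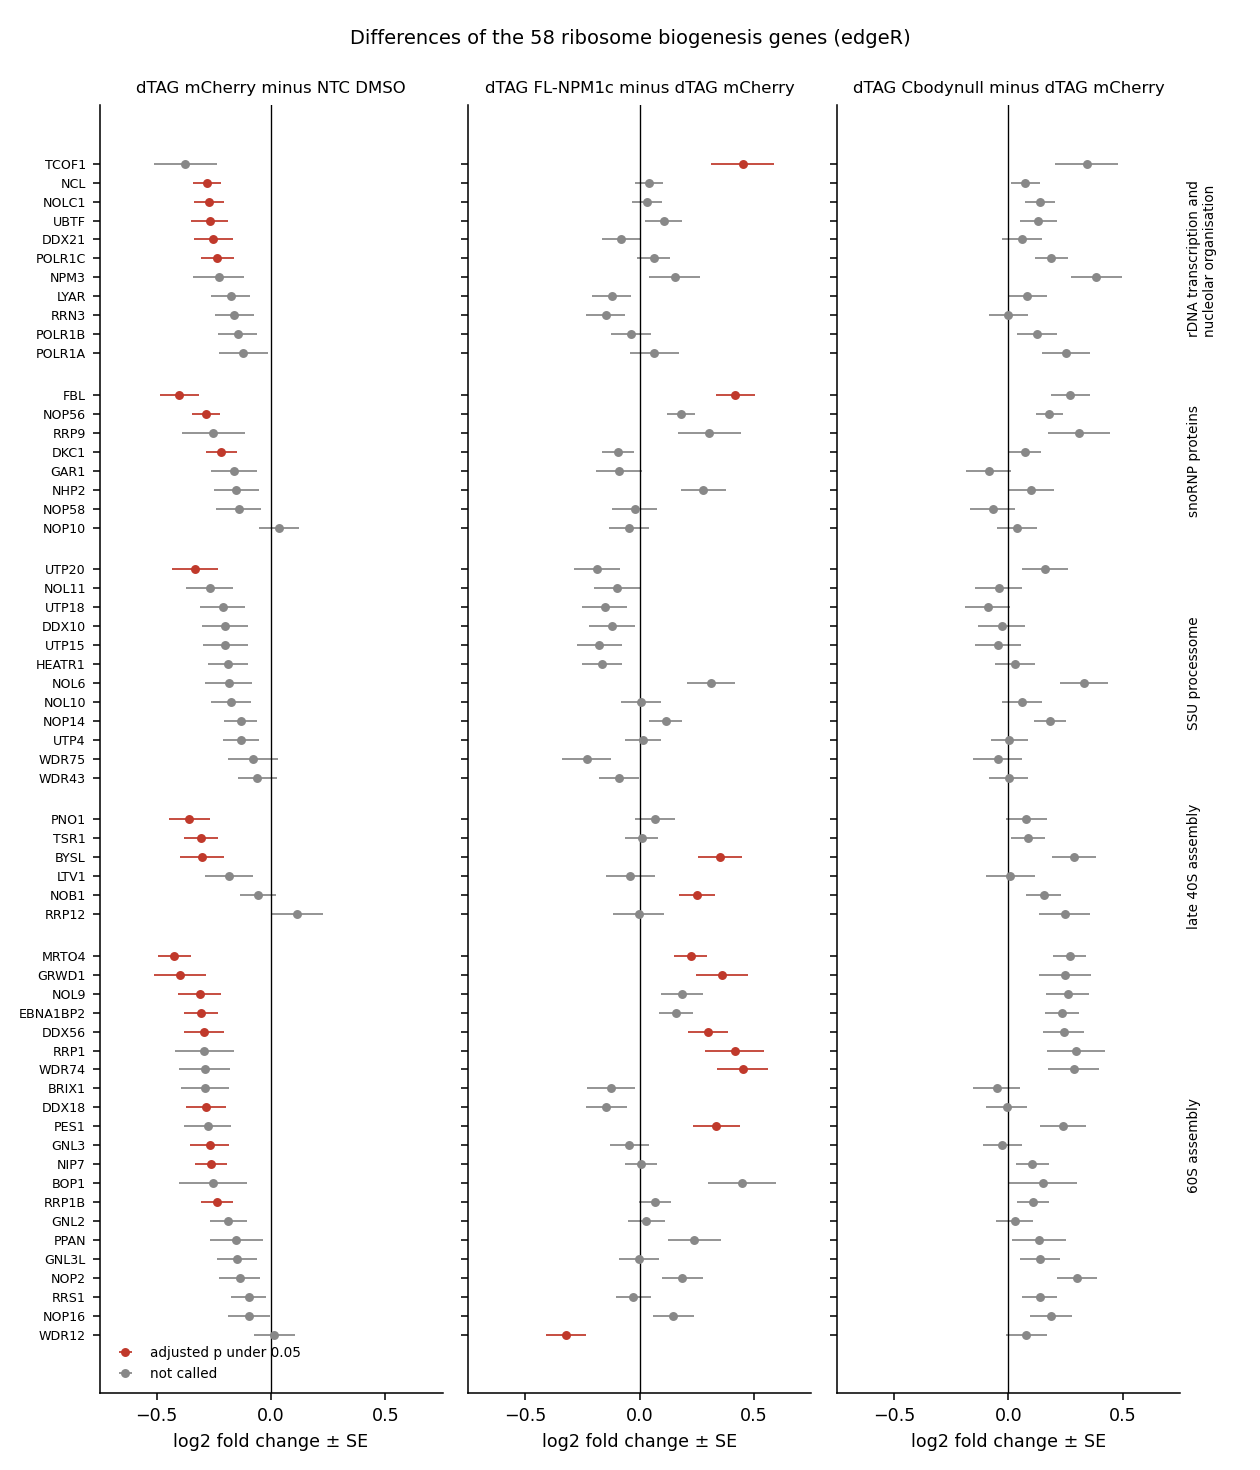
Log2 fold change with its SE (horizontal axis) of each of the 58 genes in 3 comparisons, ordered within each list by the first. Red points passed an adjusted p under 0.05. In the left panel 55 of 58 points lie below 0, while in the middle panel 10 genes rose and 1 fell, and in the right panel no gene was called.

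Among genes of rDNA transcription and nucleolar organisation, 3 subunits of RNA polymerase I were measured. POLR1A, the largest subunit (ENSG00000068654, chromosome 2, 86020216 to 86106155, minus strand, GENCODE 29 on GRCh38), was at 117, 132 and 143 CPM in NTC DMSO and 105, 139 and 116 in dTAG mCherry, with overlapping groups and a log2 fold change of -0.12 ± 0.11 (adjusted p = 0.46). POLR1C, a subunit shared with RNA polymerase III, fell by 0.24 on the log2 scale, and POLR1B was at -0.15 ± 0.09 without a call. UBTF, which opens ribosomal DNA for transcription, was at 152, 151 and 168 CPM in NTC DMSO and 123, 147 and 121 in dTAG mCherry and fell (-0.27 ± 0.08, adjusted p = 0.024). Its groups did not overlap, but the call ended without NTC DMSO replicate 3, dTAG mCherry replicate 1 or dTAG mCherry replicate 3 (adjusted p up to 0.094). RRN3, the factor that brings the polymerase to the promoter, was at -0.16 ± 0.09 (adjusted p = 0.19).

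Nucleolin, an RNA-binding protein that is among the most abundant of the nucleolus, had the smallest adjusted p of this list. NCL (ENSG00000115053, chromosome 2, 231453531 to 231483641, minus strand) was at 1734, 1784 and 1727 CPM in NTC DMSO and 1469, 1357 and 1497 in dTAG mCherry, so that every dTAG mCherry library lay below every NTC DMSO library, and it fell by 0.28 ± 0.06 (adjusted p = 0.0034). NOLC1, a nucleolar chaperone of snoRNPs, was at 331, 345 and 340.3 CPM in NTC DMSO and 270.2, 291 and 281 in dTAG mCherry and fell likewise without overlap (-0.27 ± 0.07, adjusted p = 0.0067). Both kept their call with each library left out in turn. DDX21, a helicase that links polymerase I with rRNA processing, was at 535, 549.8 and 476 CPM in NTC DMSO and 424, 409 and 477 in dTAG mCherry, where NTC DMSO replicate 3 lay just below dTAG mCherry replicate 3. It fell on average (-0.25 ± 0.09, adjusted p = 0.043), and the call ended without NTC DMSO replicate 1 or 2 or dTAG mCherry replicate 1 or 2 (adjusted p up to 0.21). TCOF1, or treacle, a scaffold of ribosomal DNA transcription, scattered widely at 109, 99 and 139.8 CPM in NTC DMSO and 83.7, 112 and 71.5 in dTAG mCherry and was not called (-0.37 ± 0.14, adjusted p = 0.059), though without dTAG mCherry replicate 2 it was (-0.58, adjusted p = 0.0013). NPM3, a relative of nucleophosmin, was at 49.9, 44.7 and 60.4 CPM in NTC DMSO and 44.1, 50.5 and 37.4 in dTAG mCherry with overlapping groups (-0.23 ± 0.11, adjusted p = 0.16).

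Of the snoRNP proteins, those of the box C/D class, which guide methylation of rRNA, included the larger decreases. FBL, or fibrillarin, the methyltransferase itself (ENSG00000105202, chromosome 19, 39834458 to 39846414, minus strand), was at 170.0, 174 and 198 CPM in NTC DMSO and 136, 149 and 126 in dTAG mCherry. All 3 dTAG mCherry libraries lay below the lowest NTC DMSO library, and FBL fell by 0.40 ± 0.09 (adjusted p = 0.0026). NOP56, a scaffold of the same particles, was at 390.1, 396 and 391 CPM in NTC DMSO and 316, 320.4 and 331 in dTAG mCherry, again without overlap, and fell by 0.28 ± 0.06 (adjusted p = 0.0029). Its partner NOP58 was at -0.14 ± 0.10 (adjusted p = 0.33) and RRP9, the protein particular to U3 snoRNP, at -0.25 ± 0.14 (adjusted p = 0.21). In the box H/ACA class, which guides pseudouridine, the enzyme DKC1 was at 219, 219.5 and 204 CPM in NTC DMSO and 189, 171 and 192 in dTAG mCherry and fell by 0.22 ± 0.07 (adjusted p = 0.033). That call ended without NTC DMSO replicate 1 or 2 or dTAG mCherry replicate 1 or 2 (adjusted p up to 0.17). The other H/ACA proteins had values of -0.16 ± 0.10 (GAR1), -0.15 ± 0.10 (NHP2) and 0.04 ± 0.09 (NOP10), none called.

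In the SSU processome, the particle that makes the first cuts on the 40S side, 11 of 12 genes were not called. The exception was UTP20 (ENSG00000120800, chromosome 12, 101280109 to 101386616, plus strand), a large scaffold protein, at 83.1, 83.6 and 76.2 CPM in NTC DMSO and 58.9, 63.7 and 70.1 in dTAG mCherry. Its dTAG mCherry libraries all lay below its NTC DMSO libraries and it fell by 0.33 ± 0.10 (adjusted p = 0.024), although the call ended without NTC DMSO replicate 1, NTC DMSO replicate 2 or dTAG mCherry replicate 1 (adjusted p up to 0.13). HEATR1, a scaffold that also acts with polymerase I, was at 242, 247 and 222 CPM in NTC DMSO and 196, 198 and 231 in dTAG mCherry and at -0.19 ± 0.09 (adjusted p = 0.14), with overlapping groups. NOL11, of the same subcomplex, was at -0.27 ± 0.10 (adjusted p = 0.074). The other 9 values ran from -0.21 ± 0.10 (UTP18) to -0.06 ± 0.09 (WDR43). The GC offset gave 7 calls among these 12 genes, all lower.

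Late 40S assembly turns the precursor into a subunit that can be exported and cut to its final length. PNO1, the partner of the nuclease NOB1 (ENSG00000115946, chromosome 2, 68157844 to 68176238, plus strand), was at 64.3, 57.8 and 54.8 CPM in NTC DMSO and 47.9, 40.4 and 49.8 in dTAG mCherry and fell by 0.36 ± 0.09 (adjusted p = 0.008). TSR1, a GTPase-like factor that blocks early use of the subunit, was at 189.7, 187 and 175 CPM in NTC DMSO and 148, 139 and 159.9 in dTAG mCherry and fell by 0.31 ± 0.07 (adjusted p = 0.0058). In both genes the groups did not overlap and the call held with each library left out. BYSL, or bystin, fell by 0.30 ± 0.10 (adjusted p = 0.031), a call that ended without NTC DMSO replicate 3, dTAG mCherry replicate 1 or dTAG mCherry replicate 3 (adjusted p up to 0.12). NOB1 itself was at 72.9, 70.9 and 77.5 CPM in NTC DMSO and 72.5, 72.5 and 67.7 in dTAG mCherry, with a difference of -0.06 ± 0.08 (adjusted p = 0.65). RRP12, an export factor, had the highest value of all 58 genes, 0.12 ± 0.11 (adjusted p = 0.5), from 66.2, 63.9 and 80.1 CPM in NTC DMSO and 71.5, 91.2 and 64.8 in dTAG mCherry.

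On the 60S side MRTO4, which holds the place of the stalk protein on the immature subunit, had the most negative value of all 58 genes. MRTO4 (ENSG00000053372, chromosome 1, 19251539 to 19260128, plus strand) was at 115, 118 and 128 CPM in NTC DMSO and 90.9, 92.7 and 85.8 in dTAG mCherry, with a gap between the groups, and fell by 0.42 ± 0.07 (adjusted p = 0.00043). EBNA1BP2, a scaffold of early 60S particles, was at 91, 97.2 and 98 CPM in NTC DMSO and 75.7, 78 and 78 in dTAG mCherry, also without overlap, and fell by 0.30 ± 0.07 (adjusted p = 0.0065). GRWD1, a histone-binding protein found on 60S particles, was at 54.2, 49.8 and 66.5 CPM in NTC DMSO and 42.3, 50.1 and 36.6 in dTAG mCherry, with dTAG mCherry replicate 2 inside the NTC DMSO range, and fell by 0.40 ± 0.11 (adjusted p = 0.018). NOL9 also fell (-0.31 ± 0.09, adjusted p = 0.022). So did the helicases DDX18 (-0.28 ± 0.09, adjusted p = 0.029) and DDX56 (-0.29 ± 0.09, adjusted p = 0.024) and GNL3, or nucleostemin (-0.27 ± 0.09, adjusted p = 0.034). RRP1B and NIP7 were also called (-0.24 ± 0.07 and -0.26 ± 0.07). The calls for GRWD1 and DDX56 ended without replicate 3 of NTC DMSO or of dTAG mCherry (for DDX56 also replicate 1 of dTAG mCherry), and those for NOL9, DDX18 and GNL3 ended without replicate 1 or 2 of NTC DMSO or replicate 1 of dTAG mCherry (for DDX18 and GNL3 also replicate 2). RRP1B and NIP7 each lost the call without at least 1 library.

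The 3 proteins of the PeBoW complex, which works as a unit on the large subunit, were not called without the GC offset. PES1 was at 109, 108 and 137 CPM in NTC DMSO and 96.5, 111 and 84.5 in dTAG mCherry and -0.28 ± 0.10 (adjusted p = 0.062), and BOP1 at -0.26 ± 0.15. WDR12 was at 85.8, 85.4 and 74.4 CPM in NTC DMSO and 85.4, 72.5 and 90.4 in dTAG mCherry, with overlapping groups (0.01 ± 0.09, adjusted p = 0.93). BRIX1, an early 60S factor, was at -0.29 ± 0.10 (adjusted p = 0.057) and WDR74 at -0.29 ± 0.11 (adjusted p = 0.072), both without a call. Under the offset PES1 (-0.23 ± 0.05, adjusted p = 0.00078), BOP1 (-0.20 ± 0.05, adjusted p = 0.0035), BRIX1 (-0.24 ± 0.06, adjusted p = 0.0069) and WDR74 (-0.25 ± 0.06, adjusted p = 0.0059) fell, and these calls held with each library left out, while WDR12 was at 0.06 ± 0.04 (adjusted p = 0.34).

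In this comparison 8 of the 21 genes that fell kept the call with each of the 6 libraries left out in turn (EBNA1BP2, FBL, MRTO4, NCL, NOLC1, NOP56, PNO1 and TSR1), and the other 13 lost it without at least 1 (adjusted p up to 0.21). The count was 12 without NTC DMSO replicate 1 and 9 without dTAG mCherry replicate 1, and 14 to 26 without each of the others. Of the 8, only FBL and MRTO4 were called when the 2 groups were fitted alone (adjusted p = 0.022 and 0.012), and the adjusted p of NCL was then 0.077. Of 39 calls made with the GC offset 28 held with each library left out. The proliferation genes fell in the same comparison (14 of 15, median -0.56) and the monocyte markers rose as given above, while MYC was at -0.08 ± 0.07 (adjusted p = 0.46). Their part in the result was not tested.

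The 114 other genes of the pathway were also lower: 26 (22.8%) fell and none rose, with a median of -0.18. Of all genes tested, 9.69% fell and 12.9% rose. Of those with a mean at or above 31.6 CPM, the lowest of the main list, 17.3% fell. Among the 114, 5 of 16 other RNA polymerase I genes (31.25%) fell, led by the polymerase subunit POLR1F (-0.50 ± 0.11, adjusted p = 0.0033). Of the rest, 6 of 36 other 40S factors (16.7%) and 8 of 38 other 60S factors (21.1%) fell. So did 3 of 10 snoRNP assembly factors (30%) and 4 of 14 RNA exosome genes (28.6%). The exosome trims rRNA precursors, and its subunit EXOSC2 fell by 0.46 ± 0.07 (adjusted p = 0.00011). After the GC offset 51 of the 114 fell and 3 rose, where 15.8% of all genes fell and 20.6% rose.

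**Figure D3:**
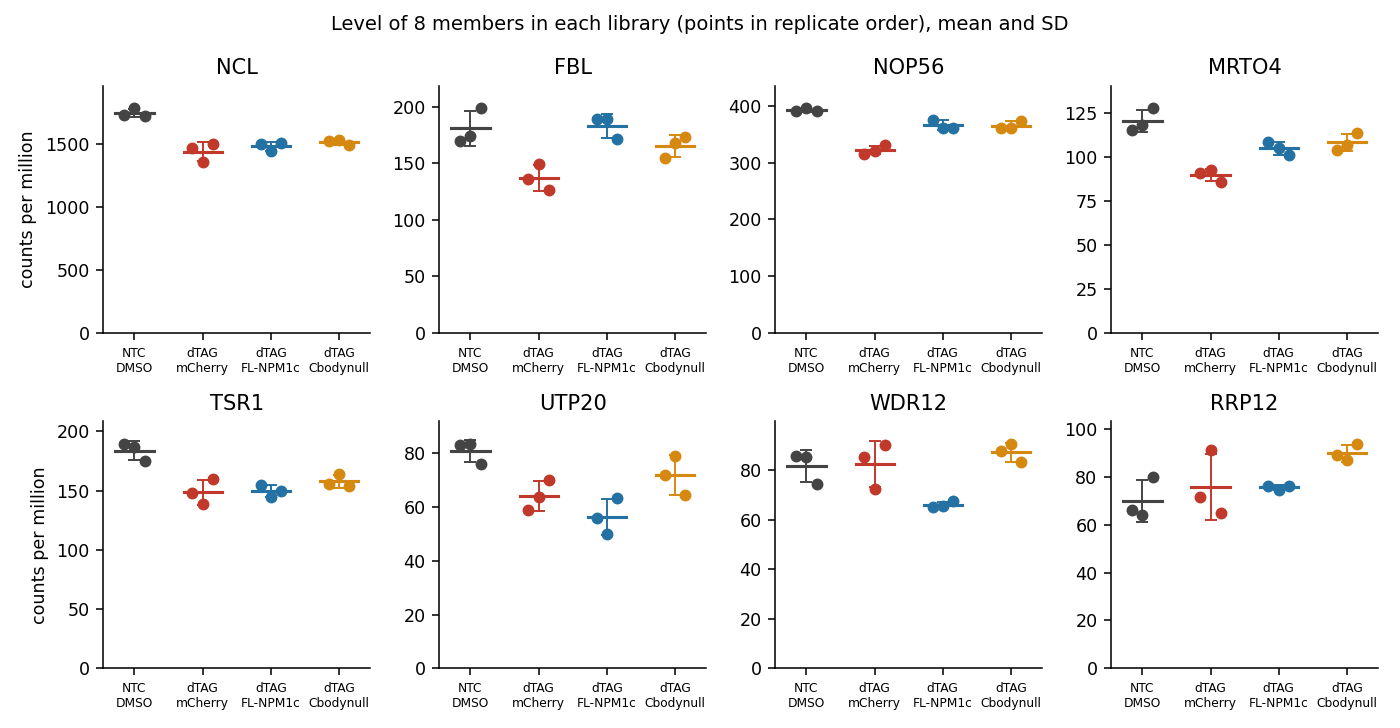
Level of 8 genes in CPM (vertical axis, from 0) in each library of the 4 groups (points in replicate order), with mean and SD (n = 3). For NCL, FBL, NOP56, MRTO4, TSR1 and UTP20 every dTAG mCherry library lies below every NTC DMSO library, while WDR12 is low in dTAG FL-NPM1c and RRP12 is high in dTAG Cbodynull.

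The promoters of the 58 genes were searched for the CACGTG E-box, the sequence that MYC and related factors are known to bind. Promoters (300 bases, from 250 before the start site, RefSeq, GRCh38.p14) were matched for 49 of 58 genes, and both strands were searched, which for this palindrome are the same. CACGTG was found in 17 of 49 (34.7%), compared with 8.88% of 15842 protein-coding promoters of the same length and 10.1% of the 10668 whose genes were tested. By list it was found in 0 of 9, 3 of 7, 6 of 11, 3 of 5 and 5 of 17 promoters, in the order of the lists above. CCGGAAG, an ETS-type motif, was found in 20 of 49 (40.8%, against 14.2% of all and 19% of those tested), and GGGCGG, a GC box, in 38 of 49 (77.6%, against 58.5% and 68.6%). The stretches below, from 100 bases before the start site, are of 4 genes that fell in dTAG mCherry against NTC DMSO. They are shown because they hold an E-box close to the start site. They were chosen after their values were seen. CACGTG is in capitals.
UTP20, chr12:101280005-101280124 (plus strand): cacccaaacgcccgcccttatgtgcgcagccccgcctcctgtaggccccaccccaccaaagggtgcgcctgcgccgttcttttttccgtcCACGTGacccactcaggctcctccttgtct
FBL, chr19:39846360-39846479 (minus strand): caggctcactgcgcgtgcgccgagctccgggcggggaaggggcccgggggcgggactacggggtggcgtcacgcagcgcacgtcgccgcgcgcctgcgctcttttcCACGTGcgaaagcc
PNO1, chr2:68157788-68157907 (plus strand): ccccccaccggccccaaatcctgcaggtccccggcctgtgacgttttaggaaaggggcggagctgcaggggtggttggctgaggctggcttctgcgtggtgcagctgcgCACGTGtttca
MRTO4, chr1:19251705-19251824 (plus strand): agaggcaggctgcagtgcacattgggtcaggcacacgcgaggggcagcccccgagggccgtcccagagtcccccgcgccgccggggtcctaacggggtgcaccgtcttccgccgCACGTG
In dTAG mCherry against NTC DMSO 6 of 17 with it fell (median -0.21) and 12 of 32 without it fell (median -0.22), and these shares were not tested against each other. A match describes these letters only and shows no bound factor.

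Adding back FL-NPM1c, compared with mCherry alone under the same transduction and dTAG-13 treatment, gave differences in both directions. Of 58 genes 10 rose, where 7.58% of all genes rose, and 1 fell, where 7.95% of all genes fell. The median was 0.03 (range -0.32 to 0.45), against -0.00 for all genes. The groups did not overlap for 16 genes that were higher and 2 that were lower, compared with 16.4% and 16% of all genes. The genes that rose were 6 of 21 in 60S assembly, 2 of 6 in late 40S assembly, 1 of 8 snoRNP proteins and 1 of 11 in rDNA transcription and nucleolar organisation. None of the 12 SSU processome genes was called, and their median was -0.11. That direction turned with the GC offset, which gave a median of 0.05, 8 of 12 positive values and 1 gene that rose. This comparison shares the dTAG mCherry libraries with the one above, and values of the 2 are given side by side without a test of their overlap.

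FBL was at 136, 149 and 126 CPM in dTAG mCherry and 189, 189 and 171 in dTAG FL-NPM1c, with every dTAG FL-NPM1c library above every dTAG mCherry library, and rose by 0.42 ± 0.09 (adjusted p = 0.0043). It was the one gene whose call held with each library left out, and its level in dTAG FL-NPM1c overlapped that in NTC DMSO (170.0, 174 and 198 CPM; 0.02 ± 0.08, adjusted p = 0.91). WDR74, a factor that helps remodel early 60S particles, was at 40.1, 43.1 and 31.6 CPM in dTAG mCherry and 53.6, 52.2 and 51.3 in dTAG FL-NPM1c and rose by 0.45 ± 0.11 (adjusted p = 0.013), a call that was lost without replicate 1 of dTAG FL-NPM1c (0.40, adjusted p = 0.060) or replicate 3 of dTAG mCherry (0.33, adjusted p = 0.054). TCOF1 was at 83.7, 112 and 71.5 CPM in dTAG mCherry and 122, 121 and 123 in dTAG FL-NPM1c: the add-back libraries lay close together while those of dTAG mCherry scattered. It rose by 0.45 ± 0.14 (adjusted p = 0.035).

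On the 60S side the genes that rose beside WDR74 were RRP1 (0.41 ± 0.13, adjusted p = 0.037), GRWD1 (0.36 ± 0.11, adjusted p = 0.041), PES1 (0.33 ± 0.10, adjusted p = 0.036), DDX56 (0.30 ± 0.09, adjusted p = 0.03) and MRTO4 (0.22 ± 0.07, adjusted p = 0.046). MRTO4 was at 90.9, 92.7 and 85.8 CPM in dTAG mCherry and 108, 105 and 101 in dTAG FL-NPM1c, between its levels in dTAG mCherry and NTC DMSO. In late 40S assembly BYSL rose (0.35 ± 0.09, adjusted p = 0.021), as did NOB1 (0.25 ± 0.08, adjusted p = 0.038), which was at 72.5, 72.5 and 67.7 CPM in dTAG mCherry and 88.1, 85.9 and 79.1 in dTAG FL-NPM1c. WDR12 was at 85.4, 72.5 and 90.4 CPM in dTAG mCherry and 65.2, 65.7 and 67.6 in dTAG FL-NPM1c, with no overlap, and fell by 0.32 ± 0.09 (adjusted p = 0.023), while BOP1, its partner, was at 0.45 ± 0.15 (adjusted p = 0.051). Each of these calls, and that of TCOF1, ended without replicate 1 of dTAG FL-NPM1c or replicate 3 of dTAG mCherry, most also without others (adjusted p up to 0.25). Of the SSU and 60S genes, HEATR1 (-0.16 ± 0.09), UTP20 (-0.19 ± 0.10), DDX18 (-0.15 ± 0.09) and WDR75 (-0.23 ± 0.11) had negative values without a call. With the GC offset DDX18 was at 0.02, and the SSU processome genes, which include the others, ran from -0.07 to 0.14. NHP2 was at 0.28 ± 0.10 without the offset.

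Leaving out replicate 1, 2 or 3 of dTAG FL-NPM1c gave 1, 2 or 8 calls, and leaving out replicate 1, 2 or 3 of dTAG mCherry gave 2, 24 or 1. Calls over all genes also rose without dTAG mCherry replicate 2, from 3735 of 24064 to 6834 of 24565. Fitting only these 2 groups left 5 of the 11 calls, where 2512 of 23565 genes were called. NOB1, PES1, WDR12, MRTO4, RRP1 and GRWD1 were lost. The GC offset gave 16 genes that rose and 2 that fell, where 10.6% of all genes rose and 11.3% fell, and the median was 0.07. Of the 11 calls 9 remained, NOB1 and MRTO4 being lost, and FBL (0.30 ± 0.05, adjusted p = 0.00017) and WDR74 (0.31 ± 0.06, adjusted p = 0.002) were among the 4 that then held with each library left out, beside BYSL, which rose, and RRP12, which fell. Beside these genes MYC rose (0.38 ± 0.07, adjusted p = 0.0022), NPM1 rose (0.40 ± 0.09, adjusted p = 0.0073), 3 of 15 proliferation genes rose and 4 of 10 monocyte markers fell. Their part in the result was not tested. The gene counts cannot separate NPM1 transcripts of the construct from those of the cells.

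Of the 114 other genes of the pathway, 13 rose and 4 fell with FL-NPM1c (median 0.03), where 7.58% of all genes rose and 7.95% fell. The largest values were those of RUVBL2, an ATPase of snoRNP assembly (0.46 ± 0.13, adjusted p = 0.03), the helicase DHX37 of the SSU processome (0.45 ± 0.12, adjusted p = 0.02) and, on the negative side, PAK1IP1 of 60S assembly (-0.43 ± 0.10, adjusted p = 0.01). None of the 16 other RNA polymerase I genes was called. With the GC offset 23 of the 114 rose and 4 fell, where 10.6% of all genes rose and 11.3% fell. Of the 23, 1 was a polymerase I gene.

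Adding back Cbodynull gave no calls among the 58 genes, where 0.216% of all genes rose and 0.378% fell. DESeq2 called 5 and edgeR without the filter on low counts called 3, and 20 had an unadjusted p under 0.05. The median was 0.13 (range -0.09 to 0.39), against -0.01 for all genes, and the groups did not overlap for 15 genes, all higher in dTAG Cbodynull, compared with 7.36% of all genes higher and 7.6% lower. NPM3 had the largest value, from 44.1, 50.5 and 37.4 CPM in dTAG mCherry and 57, 57.6 and 58 in dTAG Cbodynull (0.39 ± 0.11, adjusted p = 0.18). FBL was at 136, 149 and 126 CPM in dTAG mCherry and 155, 168 and 173 in dTAG Cbodynull, with no overlap and 0.27 ± 0.09 (adjusted p = 0.23). MRTO4 was at 90.9, 92.7 and 85.8 CPM in dTAG mCherry and 104, 107 and 114 in dTAG Cbodynull, also with no overlap and 0.27 ± 0.07 (adjusted p = 0.15).

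Leaving out dTAG mCherry replicate 2 gave 12 genes that rose, and leaving out any other library gave none. The GC offset gave 10 that rose, where 1.36% of all genes rose and 1.6% fell, and the median was 0.11: POLR1C, NPM3, FBL, NOL6, BYSL, WDR12, MRTO4, NOP2, RRP1 and EBNA1BP2. None of these 10 held with each library left out (adjusted p up to 0.18). NPM1 transcript rose in this comparison (0.62 ± 0.09, adjusted p = 0.0029) and MYC was at 0.23 ± 0.07 (adjusted p = 0.21). None of the 114 other pathway genes was called, and with the GC offset 7 rose and 1 fell.

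The difference between the constructs was tested directly, dTAG FL-NPM1c against dTAG Cbodynull. Of 58 genes 2 were lower with FL-NPM1c and none was higher, where 4.86% of all genes were lower and 4.82% higher, and the median was -0.06 (range -0.40 to 0.30). WDR12 (ENSG00000138442, chromosome 2, 202874782 to 203014798, minus strand) was at 65.2, 65.7 and 67.6 CPM in dTAG FL-NPM1c and 87.7, 90.9 and 83.4 in dTAG Cbodynull, far apart, and was lower with FL-NPM1c (-0.40 ± 0.09, adjusted p = 0.0075), a call that held with each library left out. UTP20 was at 56.1, 49.9 and 63.2 CPM in dTAG FL-NPM1c and 72, 79.2 and 64.3 in dTAG Cbodynull and lower with FL-NPM1c (-0.35 ± 0.10, adjusted p = 0.038). That call ended without dTAG Cbodynull replicate 1 or 2 or dTAG FL-NPM1c replicate 1 or 2 (-0.27 to -0.37, adjusted p up to 0.20), which leaves WDR12 alone. The groups did not overlap for 18 genes that were lower with FL-NPM1c and 4 that were higher, compared with 17.1% and 18.1% of all genes. With only these 2 groups fitted, 8 of the 58 genes were called, WDR12 and UTP20 among them. Calls over all genes rose as well, from 2329 of 24064 to 4410 of 23316. For FBL the difference between the constructs was 0.15 ± 0.09 (adjusted p = 0.3) and for POLR1A -0.19 ± 0.11 (adjusted p = 0.29).

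After the GC offset 7 genes were lower with FL-NPM1c, where 10.4% of all genes were lower and 10.1% higher: LYAR, NPM3, DKC1, UTP20, RRP12, WDR12 and NOP2. NPM3, RRP12 and WDR12 then held with each library left out. RRP12 was at 76.4, 74.5 and 76.1 CPM in dTAG FL-NPM1c and 89, 87 and 93.9 in dTAG Cbodynull and at -0.25 ± 0.11 (adjusted p = 0.17) without the offset and -0.34 ± 0.05 (adjusted p = 7.1e-05) with it. Of the 114 other pathway genes 2 were lower without the offset, where 4.86% of all genes were lower. They were PAK1IP1 (-0.39 ± 0.10, adjusted p = 0.021) and the SSU factor NOP9 (-0.29 ± 0.08, adjusted p = 0.032). With the GC offset 15 of the 114 were lower and 9 higher, where 10.4% of all genes were lower and 10.1% higher. A gene called with 1 construct against mCherry and not with the other is not shown to differ between the constructs unless it was also called in this direct test.

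Set beside NTC DMSO, the FL-NPM1c cells had lower levels of many of these transcripts. Of 58 genes 21 fell and none rose, where 13.3% of all genes fell and 14.6% rose. Of those at or above the lowest level of the 58 genes, 27% fell. The median was -0.16 (range -0.52 to 0.19), against 0.02 for all genes, and the groups did not overlap for 29 lower genes and 1 higher, compared with 20.3% and 23.2%. By list 7 of 12 SSU processome genes fell (median -0.32), with 5 of 11 in rDNA transcription, 1 of 8 snoRNP proteins, 2 of 6 in late 40S assembly and 6 of 21 in 60S assembly. The NTC DMSO libraries are shared with the first comparison, where 1 of 12 SSU processome genes fell. That order turned with the GC offset, under which 5 of 12 fell here (median -0.09) and 7 of 12 in dTAG mCherry against NTC DMSO (median -0.15). The difference between these counts was not tested.

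UTP20 had the most negative value of the 58 genes, at 83.1, 83.6 and 76.2 CPM in NTC DMSO and 56.1, 49.9 and 63.2 in dTAG FL-NPM1c with no overlap (-0.52 ± 0.10, adjusted p = 0.0013). HEATR1 was at 242, 247 and 222 CPM in NTC DMSO and 176, 180.4 and 201 in dTAG FL-NPM1c, also without overlap (-0.35 ± 0.09, adjusted p = 0.007). UTP15 (-0.38 ± 0.10, adjusted p = 0.0099) and UTP18 (-0.36 ± 0.10, adjusted p = 0.012), of 2 subcomplexes of the processome, fell, but not without NTC DMSO replicate 1. NOL11 (-0.37 ± 0.10, adjusted p = 0.015) and the helicase DDX10 (-0.32 ± 0.10, adjusted p = 0.025) fell too, but not without replicate 1 or 2 of either group. On the 60S side DDX18 (-0.43 ± 0.09, adjusted p = 0.0021) and BRIX1 (-0.42 ± 0.10, adjusted p = 0.0077) fell most. RRN3 fell by 0.31 ± 0.09 (adjusted p = 0.013), a call lost without replicate 1 or 2 of NTC DMSO or replicate 1 of dTAG FL-NPM1c. NCL was at 1497, 1443 and 1505 CPM in dTAG FL-NPM1c and fell by 0.24 ± 0.06 (adjusted p = 0.0091), a call lost without dTAG FL-NPM1c replicate 2. FBL (0.02 ± 0.08), BYSL (0.05 ± 0.09), DDX56 (0.01 ± 0.09) and TCOF1 (0.08 ± 0.14) had values near 0 and were not called, with or without the GC offset. All have a GC content above the median of the 58 genes. The genes at or above that median had a median value of 0.02 here, so values near 0 were not particular to these genes.

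The calls that held with each library left out were 7 of 21: BRIX1, DDX18, DDX21, DKC1, HEATR1, TSR1 and UTP20. The other 14 lost the call without at least 1 library (adjusted p up to 0.14), and the count was 9 without NTC DMSO replicate 1, 13 without NTC DMSO replicate 2 and 10 without dTAG FL-NPM1c replicate 2. Under the GC offset 19 fell, where 14.4% of all genes fell and 19.6% rose, and the median was -0.11. Of the 21 calls 15 remained, and WDR75, DDX10, PNO1, WDR12, BRIX1 and GNL3 were lost. UTP20 was then at -0.35 ± 0.07 (adjusted p = 0.0015) and HEATR1 at -0.17 ± 0.05 (adjusted p = 0.018). Of the 19 calls 11 held with each library left out, UTP20 among them, while HEATR1 and DDX21 each lost the call without at least 1 library. Of the 114 other genes 38 (33.3%) fell and 2 rose, where 13.3% of all genes fell and 14.6% rose. Of those with a mean at or above 31.6 CPM, the lowest of the main list, 27% fell. Among the 114, POLR1F had the most negative value (-0.70 ± 0.11, adjusted p = 0.00024). The highest was that of NOP53, a 60S factor that recruits the exosome (0.66 ± 0.11, adjusted p = 0.0003). Under the GC offset 30 of the 114 fell and 5 rose. MYC rose in this comparison (0.30 ± 0.07, adjusted p = 0.0053) and 12 of 15 proliferation genes fell, and their part in the result was not tested.

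In dTAG Cbodynull against NTC DMSO, 8 of 58 genes fell and 1 rose, where 12.4% of all genes fell and 14.1% rose, with a median of -0.11 (range -0.34 to 0.36). At or above the lowest level of the 58 genes, 20.3% of all genes fell. The groups did not overlap for 20 lower genes and 1 higher, compared with 19.3% and 21.1% of all genes. BRIX1 was at 232, 218 and 180.1 CPM in NTC DMSO and 167, 163 and 166 in dTAG Cbodynull and fell by 0.34 ± 0.10 (adjusted p = 0.023). The other genes that fell were NOL11 (-0.31 ± 0.10, adjusted p = 0.034), UTP18 (-0.30 ± 0.10, adjusted p = 0.032), PNO1 (-0.28 ± 0.09, adjusted p = 0.028), GNL3 (-0.30 ± 0.09, adjusted p = 0.018), DDX18 (-0.29 ± 0.09, adjusted p = 0.022), TSR1 (-0.22 ± 0.07, adjusted p = 0.034) and NCL (-0.20 ± 0.06, adjusted p = 0.021). RRP12 (ENSG00000052749, chromosome 10, 97356358 to 97426076, minus strand) was the gene that rose. It was at 66.2, 63.9 and 80.1 CPM in NTC DMSO and 89, 87 and 93.9 in dTAG Cbodynull, so that every dTAG Cbodynull library lay above every NTC DMSO library (0.36 ± 0.11, adjusted p = 0.024).

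None of the 9 calls held with each library left out (adjusted p up to 0.17). The count was 0 without NTC DMSO replicate 1, NTC DMSO replicate 2 or dTAG Cbodynull replicate 3, 2 without dTAG Cbodynull replicate 1, 1 without dTAG Cbodynull replicate 2 and 15 without NTC DMSO replicate 3. In that last fit 7052 of all 24619 genes were called. Under the GC offset 16 fell and 2 rose, where 16.1% of all genes fell and 20.9% rose. The median was then -0.07, 8 of the 9 calls remained, BRIX1 being lost, and 10 of 18 held with each library left out. RRP12 was then at 0.30 ± 0.05 (adjusted p = 9.9e-05) and WDR12, which also rose, at 0.24 ± 0.04 (adjusted p = 0.00022). All 15 proliferation genes fell in this comparison and their part was not tested. Among the 114 other genes 17 (14.9%) fell and 2 rose, where 12.4% of all genes fell and 14.1% rose. Of those with a mean at or above 31.6 CPM, the lowest of the main list, 20.3% fell. POLR1F was again the most negative of the 114 (-0.88 ± 0.11, adjusted p = 1.7e-05), and with the GC offset 28 of them fell and 8 rose.

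Which genes of the pathway were called varied with the GC content of their transcripts in several comparisons. GC content ran from 37.7% to 65.2% (median 48.5%) over the 58 genes, the longest annotated transcript of each gene being used. Over the 58 genes Spearman's rho between GC content and log2 fold change was -0.14 in dTAG mCherry against NTC DMSO, 0.84 in dTAG FL-NPM1c against dTAG mCherry, 0.79 in dTAG Cbodynull against dTAG mCherry, 0.48 in dTAG FL-NPM1c against dTAG Cbodynull, 0.85 in dTAG FL-NPM1c against NTC DMSO and 0.63 in dTAG Cbodynull against NTC DMSO. Over all 20621 genes with a GC value it was 0.01, 0.47, 0.34, 0.26, 0.41 and 0.20 in the same order. These are descriptions across genes of the same libraries, and genes are not independent replicates. Similar relations held between replicates of 1 group: 0.92 for NTC DMSO replicate 3 minus the other NTC DMSO libraries, 0.89 for dTAG mCherry replicate 2, -0.93 for dTAG mCherry replicate 3 and 0.70 for dTAG Cbodynull replicate 3, each against the others of its group. With transcript length, rho was 0.76 for dTAG FL-NPM1c replicate 3, -0.63 for its replicate 2 and -0.57 for dTAG Cbodynull replicate 3. The GC offset does not adjust for length.

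Divided at the median GC content, the 29 genes at or above it held all 10 that rose with FL-NPM1c against mCherry (median 0.22), and the 29 below it held the 1 that fell (median -0.09). In dTAG FL-NPM1c against NTC DMSO the genes below it held 19 of the 21 that fell (median -0.30) and those at or above it 2 (median 0.02). In dTAG mCherry against NTC DMSO the calls were divided evenly, 11 at or above and 10 below, with medians of -0.26 and -0.20. The decrease in that comparison was therefore seen on both sides of the median GC content. With the GC offset the median deviations of the 58 genes were 0.10, 0.07 and 0.09 in NTC DMSO, -0.09, -0.12 and -0.07 in dTAG mCherry, -0.01, -0.04 and -0.03 in dTAG FL-NPM1c and 0.02, 0.02 and 0.02 in dTAG Cbodynull. The ranges of the 4 groups then do not overlap.

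**Figure D4:**
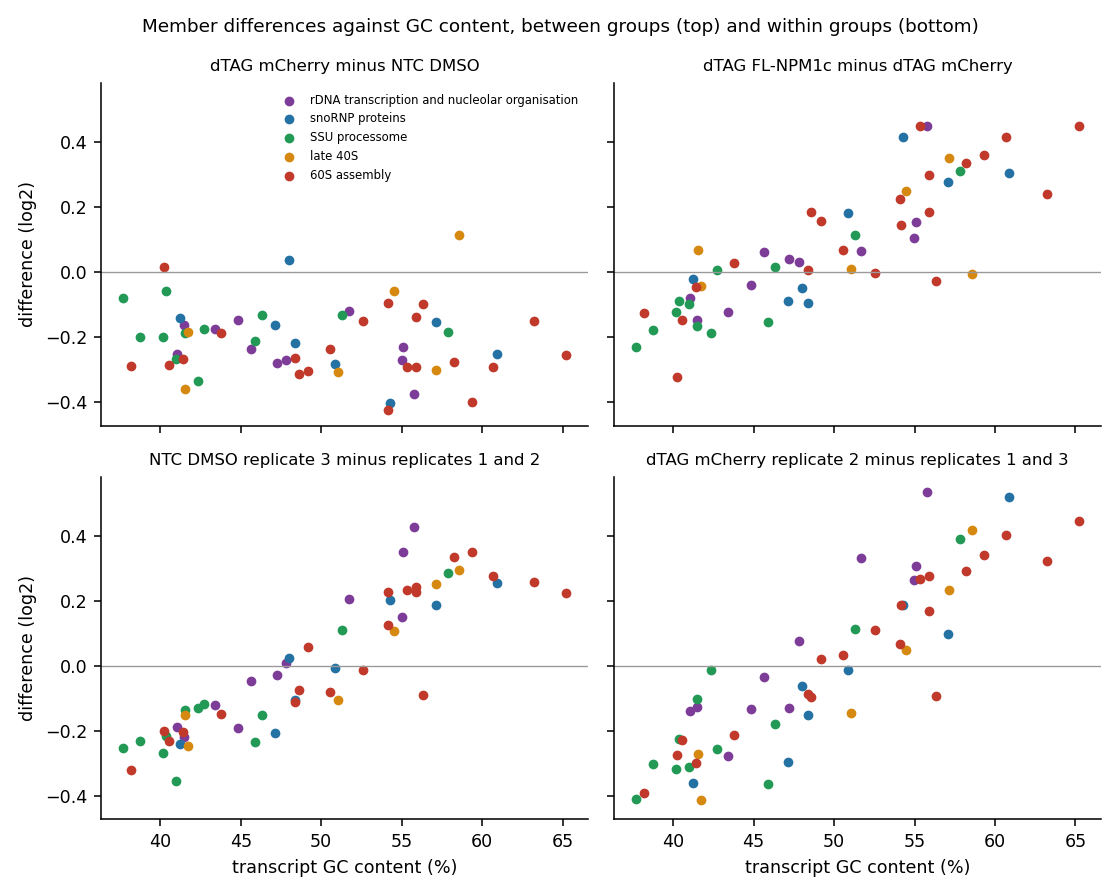
Difference (log2, vertical axis) of each of the 58 genes against the GC content of its longest transcript (percent, horizontal axis), coloured by list. The upper panels compare groups and the lower panels compare 1 library with the others of its group. The upper right panel and both lower panels rise with GC content, while in the upper left panel most genes lie below 0 across the whole GC range.

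**Figure D5:**
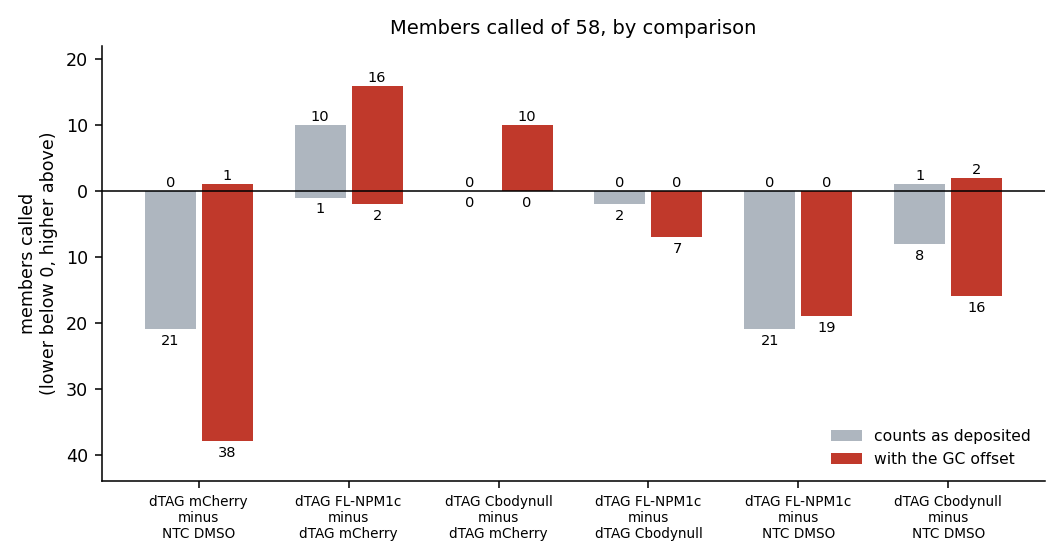
Number of the 58 genes that were higher (above 0) or lower (below 0) at an adjusted p under 0.05 in each of the 6 comparisons, from the deposited counts (grey) and with the GC offset (red). Without the offset 21 genes were lower in dTAG mCherry and 21 in dTAG FL-NPM1c, each against NTC DMSO, and with it 38 and 19.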

How the data were processed

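RNA of 12 OCI-AML3 samples was prepared with TruSeq stranded mRNA reagents, as the labels' protocols say. The authors deposited whole-number gene counts, 1 column for each library, and the submitters' processing notes list the tools STAR, featureCounts and DESeq2 with the hg38 build, without saying which step each did. The sources used here do not give tool versions, the gene annotation, whether strand was used in counting, or what was done with reads of several matches. Columns were assigned to samples through the library number that column names and sample descriptions share, and groups were read from the titles.

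Of 78936 lines 6 were broken (2 genes) and left out. Symbols came from a gene name table and GENCODE 29, which also gave coordinates (GRCh38), exon lengths and GC content. Counts were fitted with edgeR 4.0.16 (R 4.3.3; TMM factors 0.975 to 1.02; filterByExpr, which kept 24064 genes and 99.9% of counts) in a single robust quasi-likelihood model of the 4 groups, with a common biological coefficient of variation of 0.0975. Adjusted p (Benjamini-Hochberg over all genes tested) under 0.05 was called. Values after ± are standard errors (the absolute log2 fold change over the square root of F), each for 3 libraries against 3. The spread behind them was estimated from all 12 libraries and moderated across genes. CPM used effective library sizes, so precision rests on totals of 30519165 to 59925564 counts and on the spread between libraries. Replicates differed by more than sampling noise.

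The 58 genes, the lists and the tests were chosen with earlier results of these data known. Values are given by name for the 4 genes with the smallest adjusted p in each list, for POLR1A, UBTF, FBL, DKC1, NCL, HEATR1, NOB1, PES1 and NPM3, for up to 10 called genes in each comparison (the largest changes where there were more), and for NPM1, MYC and up to 2 called genes per further list. Other genes were named after their values were seen.

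The alternatives were DESeq2 1.42.0, RLE size factors, library totals only, no filter on low counts, at least 50 counts in 3 libraries, adjusted p under 0.01, only the 2 groups compared, a replicate block and each library left out. The GC offset (lowess, span 0.3, in each library over genes with a mean log2 CPM of at least 1, 20621 genes tested) was added after seeing the data. The test was checked on simulated counts. Promoters are those of RefSeq (GRCh38.p14). Figures used matplotlib 3.10.9.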

Additional observations from a re-analysis of the deposited data

How the results depend on the processing

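The 6 comparisons are taken in the order dTAG mCherry against NTC DMSO, dTAG FL-NPM1c against dTAG mCherry, dTAG Cbodynull against dTAG mCherry, dTAG FL-NPM1c against dTAG Cbodynull, dTAG FL-NPM1c against NTC DMSO and dTAG Cbodynull against NTC DMSO, in which 21, 11, 0, 2, 21 and 9 of the 58 genes were called. An adjusted p under 0.01 left 8, 1, 1, 9 and 0 in the comparisons other than the third. The GC offset gave 39, 18, 10, 7 and 18 in the comparisons other than the fifth. Fitting only the groups compared gave 2, 5 and 8 in the first, the second and the fourth. Over all genes it called 3402 of 22789, 2512 of 23565 and 4410 of 23316 in the same order. Replicate numbers did not pair the samples (correlations of same-numbered libraries -0.31 to 0.16, 2 of 18 over 0.1, and 0 of 12 libraries closest to their own number), and a replicate block gave 13, 3 and 1 calls in the same comparisons. DESeq2 gave 5 and no filter on low counts 3 in the third. RLE size factors, library totals only and at least 50 counts in 3 libraries kept each count within 1.5 times.

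Leaving out each library gave 9 to 26, 1 to 24, 0 to 12, 1 to 2, 9 to 24 and 0 to 15 calls in the 6 comparisons. With the GC offset as well, it gave 6 to 16, 0 to 13, 3 to 9 and 11 to 18 in the second, the third, the fourth and the sixth. The median log2 fold change with the GC offset was 0.0709, -0.11 and -0.0692 in the second, the fifth and the sixth, and -0.13 in the fifth with library totals only. With each library left out it was -0.0102 to 0.0616, 0.0863 to 0.14, -0.10 to -0.0506 and -0.19 to -0.15 in the second to the fifth. No called value of a named gene changed sign. Over all genes, the number called in the third comparison was 143, 71 at an adjusted p under 0.01, 368 without the filter, 86 with a replicate block, 63 with only its groups and 610 with the GC offset. Of 210 results for single named genes, the GC offset left 165 on the same side of the threshold, the replicate block 192 and DESeq2 199. All 58 genes lay far above the filter on low counts, and the median standard error of their log2 fold changes in the first comparison was 0.09. Values such as -0.27 ± 0.10 for NOL11 were not called with 3 libraries in a group.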
